A study of Mus musculus with 6 samples.

Results

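AGO2 clusters inside very long genes were taken as the clusters that lay wholly within the body of a protein-coding gene of at least 500 kb, on its strand, and outside its last 1000 nt. RefSeq lists 226 such genes on mm10, and 224 of them had a known strand (1.04% of the protein-coding genes with a strand, together 189.267 Mb with their ends left out). The genes held 80648 of 359172 AGO2 clusters in the WT library (22.5%), 140251 of 616014 in *Mov10* Deletion replicate 1 and 140250 of 616005 in replicate 2 (22.8% each). Clusters were counted on the sense strand, and 363, 561 and 561 further clusters of the 3 libraries lay antisense to these genes.

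The libraries came from AGO2 chimeric eCLIP of whole P0 brain of C57Bl/6J mice. In this assay RNA is crosslinked to AGO2 by UV light and recovered by immunoprecipitation (IP), and a miRNA can be ligated to the RNA it was bound with, so that some reads name both. The samples were 1 WT brain and 2 *Mov10* Deletion brains, each with a size-matched input that entered only through the deposited IP over input values. In *Mov10* Deletion mice a floxed *Mov10* allele is removed by Emx1-Cre, which acts in the excitatory lineage of neocortex and hippocampus, and the other allele is a *Mov10* mutant, so a whole brain also holds cells in which the floxed allele is kept. Fewer cells of a type and less RNA per cell cannot be told apart in such samples. The list of neuronal genes, which was used to check the tissue, had clusters in 8 of 8 genes in every library, the glial and progenitor list in 6 of 6, and a list of genes of other organs in 2 of 8, with 4, 5 and 5 clusters. *Mov10* itself held 11 clusters in WT, 1 of them enriched, and 9 in each *Mov10* Deletion library, none enriched.

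AGO2 is the protein that carries a miRNA, and the miRNA pairs through its seed, nucleotides 2 to 8, with a target RNA. Sites are best known in the 3′UTR of mature mRNA, and a very long gene is almost entirely intron. Many of the longest genes of the mouse encode adhesion molecules, receptors and scaffolds of the synapse. In the GENCODE annotation of GRCm39, exons covered a median of 1.55% of these 224 genes, against 23.8% of shorter protein-coding genes. The last exon there had a median of 2997 nt and was longer than 1000 nt in 183 of the genes. Leaving out the last 1000 nt therefore keeps part of many last exons. Exons and introns of mm10 were not separated here, so a cluster deep in a gene is described by its distance from the gene's end.

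The sequences that matter for the results below are those of miRNAs, from RefSeq on GRCm38.p6 with the seed in capitals. The first set names miRNAs whose targets were frequent in these genes:
let-7c-5p: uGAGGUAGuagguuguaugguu
miR-125b-5p: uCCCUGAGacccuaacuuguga
miR-9-5p: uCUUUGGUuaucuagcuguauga
The other frequent miRNAs were miR-124-3p, miR-466i-5p and miR-466f-3p.

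The second set shows mature miRNAs that are themselves encoded within a very long gene and lay under an enriched AGO2 cluster in all 3 libraries:
miR-153-3p: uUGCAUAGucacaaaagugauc
miR-218-5p: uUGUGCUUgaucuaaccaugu
miR-204-5p: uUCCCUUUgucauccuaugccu
miR-551b-3p: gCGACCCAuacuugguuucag
No seed is shared among the miRNAs printed.

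Per kb of all annotated gene body, AGO2 clusters were denser in very long genes than in shorter ones. The density was 0.426 clusters per kb in WT, and 0.741 in each *Mov10* Deletion library. Genes of 100 kb to under 500 kb, measured the same way, held 0.324, 0.585 and 0.585 clusters per kb, and genes under 100 kb held 0.271, 0.443 and 0.443. The order of the 3 gene classes was the same in each library. The *Mov10* Deletion libraries share cluster coordinates (139934 of these clusters were identical), so a density is in effect measured once for that genotype. The genotypes were not tested against each other, since WT has 1 library.

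Density varied widely between genes. In WT it ran from 0 to 0.953 clusters per kb over the 224 genes, with a median of 0.405 and quartiles of 0.200 and 0.639. In *Mov10* Deletion replicate 1 it ran from 0.00179 to 1.56, with a median of 0.762. The genes of highest density in WT were *Kirrel3* (0.953), an adhesion molecule of the immunoglobulin superfamily, *Auts2* (0.949), a neurodevelopmental nuclear regulator, *Celf2* (0.931), an RNA-binding splicing factor, *Cacna1c* (0.872), a subunit of the L-type calcium channel, and *Frmd4a* (0.860), a scaffold of cell polarity. In *Mov10* Deletion replicate 1 the same genes had 1.46, 1.56, 1.52, 1.49 and 1.52 clusters per kb. The other end of the list held *Malrd1*, *Pkhd1*, *Iqcm*, *Skint5* and *Stpg2*, which had no WT cluster, while either *Mov10* Deletion library held 3, 1, 2, 4 and 2 there. *Pkhd1* encodes fibrocystin of kidney and bile duct epithelium, and *Skint5* belongs to a family of skin and thymus. *Dmd*, which encodes dystrophin and is the longest at 2390 kb, held 0.114 clusters per kb in WT, while *Lsamp*, an adhesion molecule of limbic neurons, held 0.759.

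The order of the genes was close to the same in both genotypes. Spearman's rho of density between WT and *Mov10* Deletion replicate 1 was 0.975 across the 224 genes, which share the sequenced tissue and the length that each count was divided by. Length itself was weakly related to density (rho of 0.150 in WT and 0.120 in *Mov10* Deletion replicate 1, across genes). Genes are not independent replicates. At the edge of the length rule, the 3 genes just inside, *Samd12*, *Dock1* and *Edil3* (503, 503 and 502 kb), held 0.173, 0.104 and 0.208 clusters per kb in WT, and the 3 just outside, *Dnm3*, *Lrrc7* and *Cacna1e* (496, 495 and 494 kb), held 0.436, 0.713 and 0.387.

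**Figure D1:**
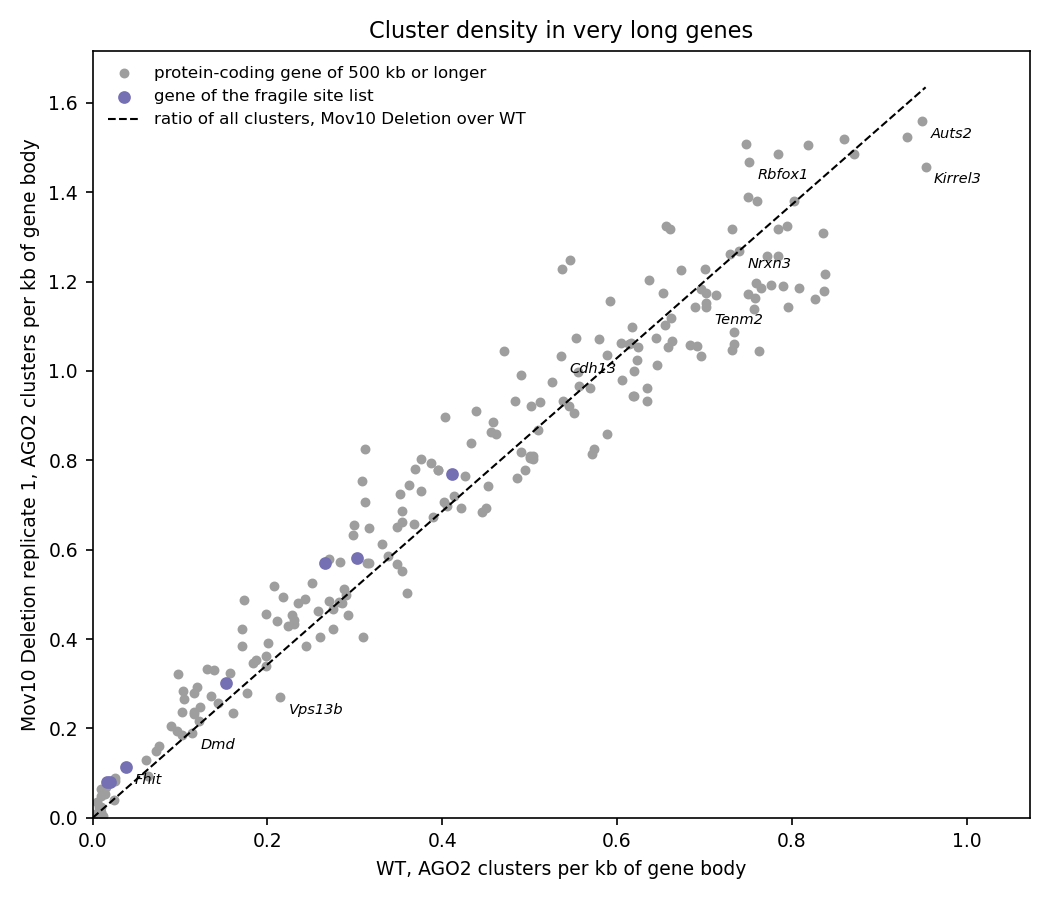
Clusters per kb of gene body in WT (x axis) and *Mov10* Deletion replicate 1 (y axis) for the 224 genes, each a point, with the dashed line at the ratio of all clusters of the libraries (1.72). The points follow the line over the whole range, and the 7 genes of the fragile site list lie at or below 0.412 in WT.

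By role, the long genes of 4 neuronal lists had similar densities and those of common fragile sites had low ones. The 51 genes of adhesion and axon guidance had a median of 0.550 clusters per kb in WT, the 21 genes of receptors and channels had 0.589, the 22 genes of synaptic scaffolds and signalling had 0.550, and the 11 RNA-binding and transcription factors had 0.537. The 112 genes in no list had a median of 0.277. The 7 genes of common fragile sites, which are regions prone to breaks when replication is slowed, had a median of 0.153 in WT and 0.302 in *Mov10* Deletion replicate 1. Within this group *Macrod2* held the most, 0.412 clusters per kb in WT, *Wwox* 0.266, *Fhit* 0.0385 and *Immp2l* the fewest, 0.0161, so the group spans low to middle values. Of the 1575 WT clusters of the group 4 were enriched over input (0.254%, exact 95% interval 0.0692 to 0.649), by the rule given below. The RNA-binding and transcription factors had 88 of 5887 (1.49%, 1.201 to 1.84) and adhesion genes 273 of 28702 (0.951%, 0.842 to 1.07). Receptors and channels had 0.802% (0.633 to 1.00), an interval that overlaps that of the fragile site genes. Synaptic scaffolds and signalling had 1.18% (0.979 to 1.41). Genes in no list had 1.37% (1.23 to 1.53), so the RNA-binding and transcription factors did not stand apart from them. The low share of the fragile site genes was not seen in *Mov10* Deletion, where they had 2.46% (1.95 to 3.06) in replicate 1 and 1.77% (1.35 to 2.29) in replicate 2. Adhesion genes had 2.54% (2.3995 to 2.68) and 1.77% (1.65 to 1.89) there.

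Each *Mov10* Deletion library had 1.72 times the clusters of WT, and 1.74 times as many inside very long genes. Among the 201 very long genes with at least 50 clusters in WT, the median ratio of *Mov10* Deletion replicate 1 over WT was 1.78 (quartiles 1.62 and 2.00), against 1.71 for 1212 shorter genes with as many clusters. The ratio reached 2-fold in 50 of the 201 genes (24.9%), where 18.9% of all protein-coding genes with at least 50 WT clusters did so. The highest ratios belonged to *Cdkal1* (65 clusters in WT, 213 in *Mov10* Deletion replicate 1, ratio 3.28), which encodes a tRNA-modifying enzyme, *Fhit* (62 and 183, ratio 2.95), a diadenosine triphosphate hydrolase, and *Samd12* (87 and 245, ratio 2.82). The lowest belonged to *Vps13b* (120 and 151, ratio 1.26), a lipid transfer protein of the Golgi, *Galnt13* (211 and 275, ratio 1.30), a glycosyltransferase, and *Adgrl3* (616 and 844, ratio 1.37), an adhesion receptor of the synapse. The numbers in replicate 2 were identical for these 6 genes, since the cluster lists are shared.

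Most clusters inside very long genes were weakly enriched over input. The WT library had a median log2 IP over input of 0.34, and the *Mov10* Deletion replicates had 0.80 and 0.49, below the medians of all clusters of the same libraries (0.76, 1.12 and 1.25). Enriched clusters were those at least 8-fold over input (3 on the log2 scale) whose −log10 p reached 3. In WT 902 clusters inside very long genes met this rule, 1.12% of them (exact 95% interval 1.05 to 1.19), where 2.11% of all WT clusters were. In *Mov10* Deletion replicate 1 there were 4274, or 3.05% (2.96 to 3.14), against 5.18% of all clusters, and in replicate 2 there were 2680, or 1.91% (1.84 to 1.98), against 3.10%. The share was therefore below that of the whole library in all 3, and the intervals cover counting error only.

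The same order held against other gene classes. Genes of 100 kb to under 500 kb had enriched shares of 1.56%, 4.60% and 2.69% in WT and *Mov10* Deletion replicates 1 and 2, and genes under 100 kb had 2.38%, 6.30% and 3.81%. The last 1000 nt of the very long genes held few clusters, 195 in WT and 278 in each *Mov10* Deletion library, of which 7, 20 and 10 were enriched. These are shares of 3.59% (1.46 to 7.26), 7.19% (4.45 to 10.9) and 3.60% (1.74 to 6.52), of which the interval in replicate 2 overlaps that of the bodies of the same genes and the other 2 do not. Per Mb, enriched clusters of very long genes numbered 4.77 (WT), 22.6 and 14.2 (*Mov10* Deletion replicates 1 and 2), and genes under 100 kb held 6.45, 27.9 and 16.9.

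**Figure D2:**
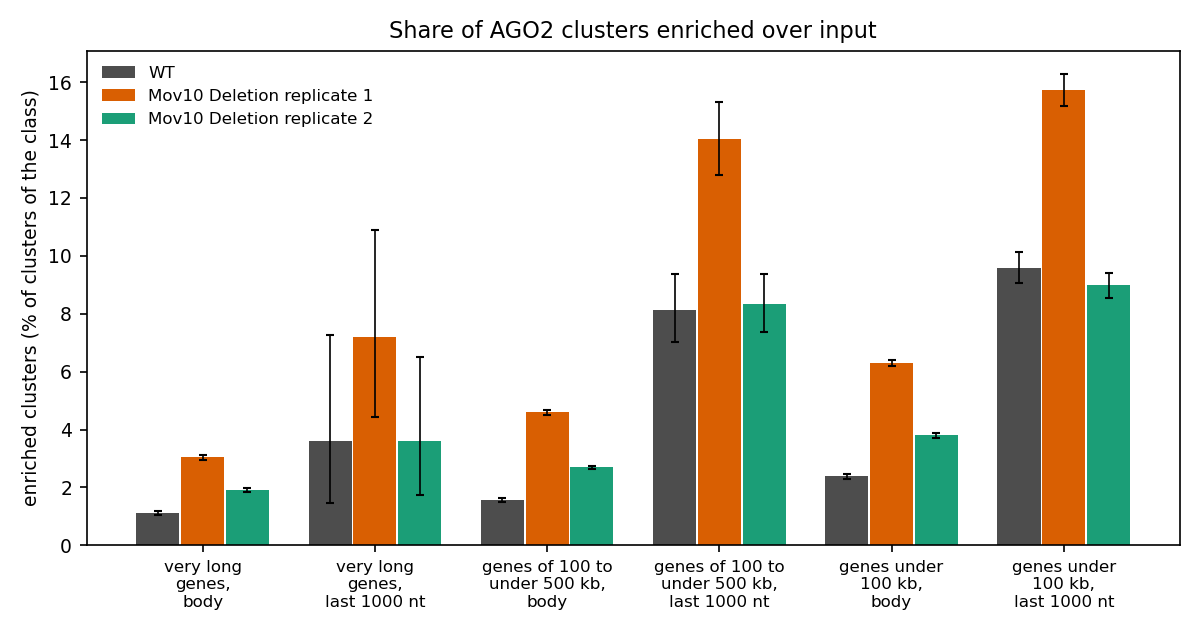
Share of AGO2 clusters that were enriched over input (y axis, %) in the bodies and the last 1000 nt of 3 classes of gene, for each library, with exact 95% intervals as bars. Bodies of very long genes had the lowest share in each library (1.12%, 3.05% and 1.91%).

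The genotypes could not be ranked by this share. Reads behind a cluster, inferred from the deposited values, were at least 16 for an enriched WT cluster over 1 input read, but 9 and 8 sufficed in *Mov10* Deletion replicates 1 and 2. With at least 16 inferred IP reads required everywhere, the enriched share of clusters in very long genes was 1.12% in WT, 1.11% (1.05 to 1.16) in replicate 1 and 0.481% (0.445 to 0.518) in replicate 2. WT and replicate 1 then had overlapping intervals, and replicate 2 lay below both. With a −log10 p of at least 5 the shares were 0.879%, 1.15% and 0.740%, and WT lay between the *Mov10* Deletion replicates. The enriched clusters of these genes had median inferred IP reads of 48 in WT, 13 in replicate 1 and 11 in replicate 2, so single values in *Mov10* Deletion are less precise.

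Repeat measurement at the same cluster was poor. At the 139934 clusters with identical coordinates, the log2 IP over input of replicate 2 minus replicate 1 had a median of −0.54 and an SD of 2.03. Pearson's r between the replicates was 0.055 across these clusters, which share the cluster list and mostly rest on few reads. Of the clusters enriched in replicate 1, 476 (11.2%) were also enriched in replicate 2, and these were 17.8% of the enriched clusters of replicate 2. Over all clusters of the libraries the same shares were 13.7% and 22.9%. Of the 902 enriched WT clusters, 823 (91.2%) overlapped a *Mov10* Deletion cluster, where 37.1% of all WT clusters in these genes did. Enriched clusters of replicate 1 were overlapped by 449 (49.8%) and those of replicate 2 by 380 (42.1%). The same shares over the whole WT library were not computed. Medians per gene were closer, with a Spearman's rho of 0.825 between the replicates across 201 genes. Between WT and replicates 1 and 2 it was 0.867 and 0.793, so this likeness was not particular to the replicates.

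Enriched clusters were spread over most of the genes. In WT 140 of the 224 genes held at least 1 (background over protein-coding genes holding any cluster, 16.8%), and in *Mov10* Deletion 209 did so in replicate 1 (41.9% of all), 195 in replicate 2 (32.7%) and 194 in both (23.9%). A longer gene has more clusters, so these counts are not comparable with those of genes of other lengths. With at least 16 inferred IP reads they were 140, 167 and 125, and 121 in both *Mov10* Deletion libraries, so replicate 1 stayed above WT and replicate 2 lay below it. With a −log10 p of at least 5 they were 127, 167 and 149. The number in all 3 libraries was 137, and 13 genes had none in any. *Hpse2*, a heparanase gene, was the 1 gene with an enriched cluster in WT (2 of its 5) but in neither *Mov10* Deletion library. In WT 22 genes held 50% of the enriched clusters, and 44 and 42 genes did so in the *Mov10* Deletion replicates.

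The genes with most enriched clusters in WT were *Sox5*, *Cdh13*, *Camta1*, *Rbms3* and *Asic2*. *Sox5*, a transcription factor of deep-layer cortical neurons, had 37 enriched of 501 WT clusters, and 72 and 36 of 930 in the *Mov10* Deletion replicates. *Cdh13*, a cadherin anchored by a lipid tail, had 36 of 635 in WT, 130 of 1223 in replicate 1 and 77 in replicate 2, which is 5.67%, 10.6% and 6.30%. *Camta1*, a calmodulin-binding transcription activator, had 31, 111 and 38. *Rbms3*, an RNA-binding protein, had 29, 94 and 34, and *Asic2*, an acid-sensing ion channel, had 26, 85 and 57. In *Mov10* Deletion the leading genes by the lower replicate were *Cdh13* (77), *Asic2* (57), *Auts2* (54), *Rbfox1* (43) and *Nav2* (41). *Rbfox1*, a neuronal splicing regulator, had 21 in WT, 78 in replicate 1 and 43 in replicate 2, and *Auts2* had 6, 54 and 54. Clusters that touch with no gap were common, and counted as runs the values for *Cdh13* were 31, 85 and 52 and for *Sox5* 24, 53 and 24. Over all the genes, 57.5% of enriched clusters adjoined another cluster in WT, 74.2% in replicate 1 and 72.8% in replicate 2.

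The 10 longest genes held from 0 to 16 enriched clusters in WT. *Dlg2*, a scaffold of the postsynaptic density, had 14 enriched clusters in WT, 34 in replicate 1 and 31 in replicate 2. *Cntnap2*, a neurexin-like adhesion molecule, had 3, 34 and 14, *Csmd1*, a complement regulator, had 5, 50 and 36, and *Lrp1b*, an endocytic receptor, had 1, 20 and 13. *Dmd* and *Macrod2* had none in WT, and had 12 and 20 in replicate 1 and 3 and 18 in replicate 2.

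A stricter set was formed from clusters enriched in all 3 libraries. Of the 139934 identical *Mov10* Deletion clusters, 476 (0.340%) were enriched in both replicates, where 0.710% of all identical clusters were, and 279 (0.199%) also overlapped an enriched WT cluster, where 0.446% of all did. Joined when within 100 nt of each other, the 279 clusters made 174 loci in 78 genes. *Cdh13* and *Sox5* held 11 loci each, and *Dlgap2*, a postsynaptic scaffold, and *Nrg1*, the ligand neuregulin, held 6 each. Of the 174 loci, 155 lay at least 50 kb from the end of their gene and 7 lay within 5 kb of it. Of all clusters in these genes, 95.5% lay at least 50 kb away in every library. Within 5 kb lay 0.718% (WT), 0.580% and 0.582%, so a larger part of the loci than of all clusters was near the end. Another gene on the same strand also held 15 loci, where 2.61%, 2.35% and 2.36% of all clusters in these genes lay in one. The loci described below were chosen after their values were seen, as examples, and some stronger loci are not described.

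By the lowest log2 of the 3 libraries, the strongest locus was in *Grm5*, which encodes the metabotropic glutamate receptor mGluR5. It was 30 nt wide (chr7:87979697-87979726, plus strand), 155 kb from the gene's end, and its highest log2 values were 7.01 (WT), 6.63 and 7.37. No target cluster of a miRNA overlapped it. The next 3 loci were each a mature miRNA. In *Nav2*, a neuron navigator of axon growth, a locus of 459 nt (chr7:49276460-49276918) had 5.28, 5.38 and 5.16, and a neighbour of 510 nt (chr7:49277082-49277591) had 5.31, 4.86 and 5.58, both over 332 kb from the end. In *Dlg2*, a locus at chr7:92412626-92412783 had 4.71, 5.14 and 6.38. In *Cadm2*, a synaptic adhesion molecule, the locus at chr16:67619746-67619971 lay 0.110% of the way along the gene, 964 kb from its end, and had 6.71, 4.99 and 4.27. *Anks1b*, a scaffold of the postsynapse, had a locus at chr10:90364796-90364999 with 6.36, 5.56 and 4.37.

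The strongest enrichment of *Mov10* Deletion lay where no WT cluster was called. In *Nrxn3*, which encodes a presynaptic neurexin, clusters of 2 to 5 nt at chr12:89377126-89377141 and chr12:89381308-89381319 had a log2 of 8.59 to 9.18 in replicate 1, from 666 inferred IP reads, and of 8.90 to 9.75 in replicate 2. The highest log2 of the WT library anywhere in *Nrxn3* was 4.25. Such narrow neighbours share values and are pieces of 2 stretches, not separate sites. In replicate 1, clusters of both stretches had the same log2 of 9.18, from 666 IP and 2 input reads. In replicate 2 the first stretch had 9.75 and the second 8.90 to 9.27. Whether the same reads were counted at both stretches was not tested.

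Some mature miRNAs encoded in very long genes lay under narrow, strongly enriched clusters. RefSeq lists 43 mature arms of 26 miRNA genes on the sense strand of 21 of the genes, of which 16 lay under an AGO2 cluster in WT and 11 in each *Mov10* Deletion library. Enriched clusters covered 4 arms in WT, 6 in replicate 1 and 5 in replicate 2, and 4 were the same in all 3. miR-153-3p (chr12:117250860-117250881), in *Ptprn2*, a phosphatase-like protein of dense-core vesicles, lay under clusters that reached from 117250857 to 117250884 in WT, with a highest log2 of 6.52, and of 7.27 and 6.71 in the *Mov10* Deletion replicates. miR-218-5p (chr11:35616840-35616860), in *Slit3*, an axon guidance ligand, had 6.50, 5.69 and 5.81, under clusters from 35616838 to 35616864 in *Mov10* Deletion. miR-204-5p (chr19:22750610-22750631), in *Trpm3*, a cation channel, had 5.97, 7.80 and 7.91. miR-551b-3p (chr3:29416879-29416899), in *Egfem1*, had 3.71, 4.97 and 5.25. The clusters of these 4 arms extended at most a few nucleotides past the mature sequence on either side. The opposite arm of miR-153 had no cluster in WT, and log2 values of 3.80 and 4.06 in *Mov10* Deletion with a −log10 p of 2.72 and 2.93, below the threshold.

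Of the other arms, miR-708-3p in *Tenm4*, a teneurin of cell adhesion, had log2 values of 2.66 (WT), 3.02 and 3.58, and was enriched in both *Mov10* Deletion libraries. miR-346-5p in *Grid1*, a glutamate delta receptor, had 3.08, 5.44 and 3.84 and was enriched in replicate 1 alone, since the −log10 p in WT was 1.83 and in replicate 2 was 2.46. Arms covered by a cluster that was not enriched in any library included miR-592-5p in *Grm8*, miR-873a-5p in *Lingo2* and miR-582-5p in *Pde4d*.

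Clusters were fewer towards the end of the gene, and a higher share of them was enriched there. In WT 13.5% of clusters lay in the first 10% of the gene body and 7.57% in the last 10%, and in *Mov10* Deletion replicate 1 these were 12.3% and 7.73%. The enriched share in WT was 0.905% (0.737 to 1.0998) in the first 10% and 2.45% (2.08 to 2.86) in the last 10%. In replicate 1 it was 2.63% and 4.61%, and in replicate 2 it was 1.82% and 3.01%, and the intervals of first and last did not overlap in any library. A cluster in 2 very long genes was counted for each here. By distance from the end the differences were less even. Many last exons of these genes are longer than 1000 nt, so clusters near the end can lie in them. Of the clusters, 95.5% lay at least 50 kb from the gene's end in every library, with enriched shares of 1.06%, 2.95% and 1.85%, and those at 2 to 5 kb had 4.28% (2.51 to 6.77), 7.90% (5.80 to 10.5) and 5.21% (3.51 to 7.39). The neighbouring distances were lower in WT, with 2.12% (0.580 to 5.33) at 1 to 2 kb and 1.85% (0.748 to 3.78) at 5 to 10 kb, and these intervals overlap that of the clusters far from the end (0.990 to 1.13). In replicate 1 they were 7.17% and 5.40%, and in replicate 2 they were 6.74% and 3.75%. The clusters far from the end nevertheless made up 88.5%, 92.1% and 92.1% of the enriched ones. Of 290 windows from 250 nt before to 50 nt after a start of a very long gene, 36 held a cluster in WT and 56 in each *Mov10* Deletion library, and 6 held an enriched one in replicate 1 and none in the others.

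**Figure D3:**
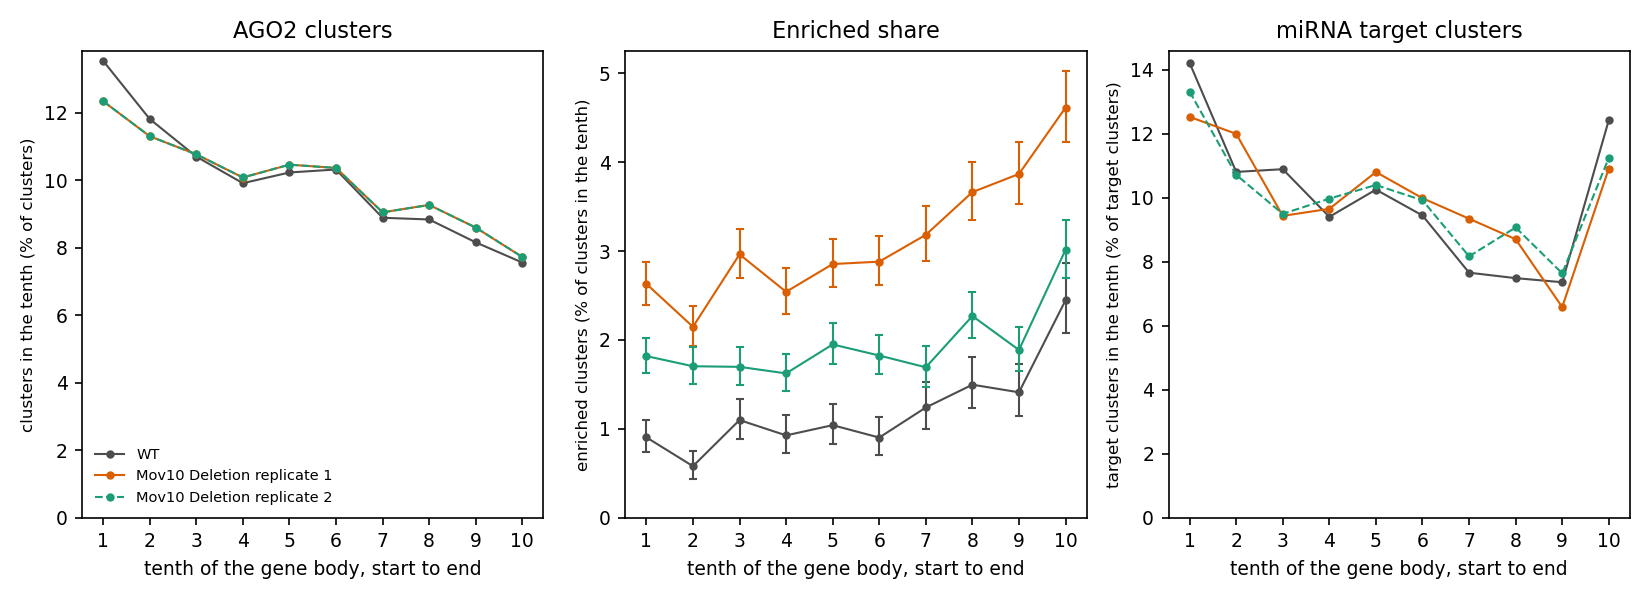
Share of clusters (left), enriched share with exact 95% intervals (middle) and share of miRNA target clusters (right) in each 10% of the gene body from start to end, for each library. In WT the first 10% held 13.5% of clusters, 0.905% of them enriched, and the last 10% held 7.57%, with 2.45% enriched.

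miRNA target clusters, called from chimeric reads, were numerous inside these genes. WT had 2325 (12.9% of its target clusters), *Mov10* Deletion replicate 1 had 4487 (16.5%) and replicate 2 had 1867 (15.1%). These lists were made separately for each library, and the 2 *Mov10* Deletion libraries lay on either side of WT in number. Per Mb there were 12.3, 23.7 and 9.86, against 17.6, 24.6 and 11.7 in genes under 100 kb. Genes of 100 kb to under 500 kb held 11.2, 19.3 and 8.38, fewer than the very long genes in each library, so the values did not fall steadily with length. The last 1000 nt of the very long genes held 171, 180 and 90.1. Of the target clusters, 65.2% overlapped an AGO2 cluster in WT, 47.6% in replicate 1 and 48.5% in replicate 2. An enriched AGO2 cluster was overlapped by 7.61% (6.57 to 8.77), 4.61% (4.02 to 5.27) and 5.25% (4.28 to 6.36), where the shares in genes under 100 kb were 14.8%, 12.7% and 12.2%. In the last 10% of the gene body lay 12.4%, 10.9% and 11.3% of the target clusters, and within 5 kb of the end 5.11%, 3.45% and 3.45%.

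Target clusters followed the number of AGO2 clusters from gene to gene (Spearman's rho of 0.897 in WT, 0.926 and 0.880 in the *Mov10* Deletion replicates, across 224 genes that share their libraries). Summed over the libraries *Rbfox1* had the most, with 66 in WT, 145 in replicate 1 and 75 in replicate 2, while *Tenm2* was above it in WT. *Tenm2*, a teneurin that binds latrophilins across the synapse, had 82, 115 and 41. *Ptprd*, a receptor phosphatase that organises synapses, had 58, 103 and 51, *Nrxn3* had 53, 105 and 45, and *Lsamp* had 56, 92 and 52. In each of the 5 genes replicate 1 was the highest, while WT was above replicate 2 in *Tenm2*, *Ptprd*, *Nrxn3* and *Lsamp* and below it in *Rbfox1*. *Cdh13*, with the most enriched clusters in *Mov10* Deletion, had 8, 31 and 12 target clusters, and *Camta1* had 9, 32 and 5. Per Mb *Frmd4a* was the highest in WT at 67.2 (136 in replicate 1 and 47.0 in replicate 2), and *Dmd* had 2.09, 5.02 and 1.26. Genes of common fragile sites had a median of 0.818 target clusters per Mb in WT, where RNA-binding and transcription factors had 17.0 and adhesion genes 11.5.

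**Figure D4:**
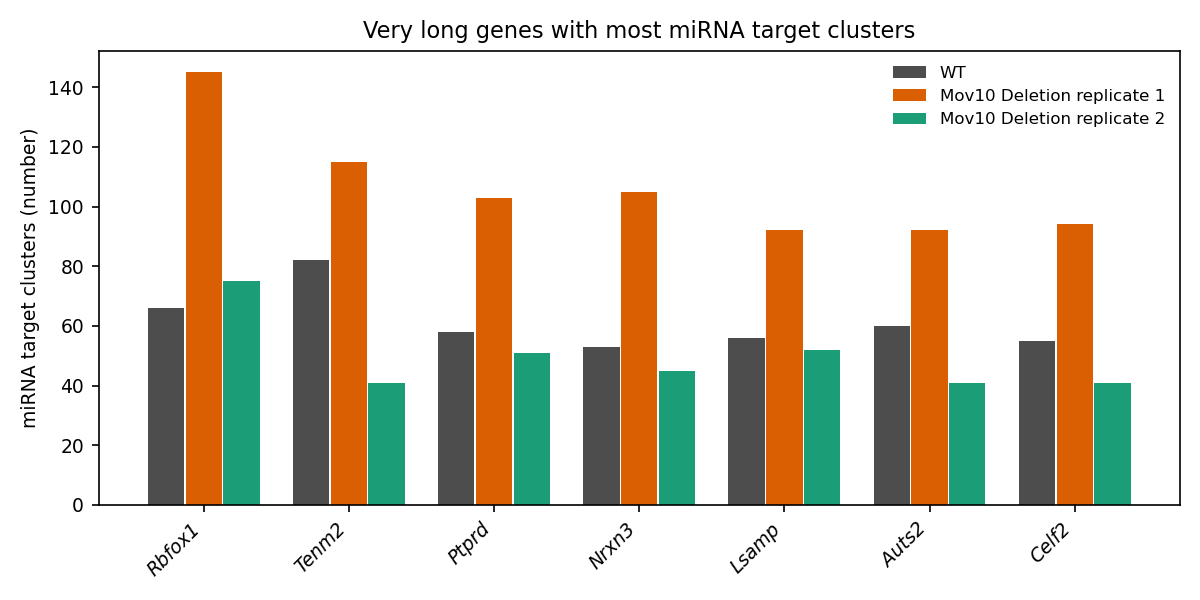
Number of miRNA target clusters (y axis) in each library for 7 very long genes with most of them, summed over libraries. *Mov10* Deletion replicate 1 had the tallest bar in each of the genes shown, and *Rbfox1* was the highest with 145.

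miR-124-3p, a miRNA abundant in neurons, had by far the most assignments. It took 1125 of the 2534 assignments inside very long genes in WT, or 44.4% (42.4 to 46.4), 35.4% (34.1 to 36.8) in *Mov10* Deletion replicate 1 and 36.5% (34.4 to 38.7) in replicate 2. In the rest of each library its shares were 41.9%, 34.7% and 36.9%. miR-9-5p, a miRNA of neural progenitors and neurons, was also near its share elsewhere, with 8.76%, 6.28% and 6.99% inside and 9.17%, 6.76% and 6.84% in the rest.

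Other miRNAs differed between very long genes and the rest. miR-466i-5p had 8.33% (7.28 to 9.47), 9.36% (8.54 to 10.2) and 11.4% (10.04 to 12.9) of assignments inside, against 3.59%, 4.77% and 4.98% in the rest. miR-466f-3p had 6.79% (5.84 to 7.84), 3.43% (2.92 to 3.99) and 2.51% (1.85 to 3.31), against 1.84%, 1.08% and 0.848%, a ratio of 2.95 to 3.68 over the libraries. These miRNAs belong to a large mouse family whose members are alike in sequence, so the member named for an assignment is uncertain. miR-125b-5p, a conserved brain miRNA, was lower inside, with 2.60% (2.02 to 3.30), 3.89% (3.36 to 4.49) and 3.18% (2.44 to 4.07) against 6.59%, 5.85% and 5.90%. let-7c-5p was at 4.26%, 3.72% and 3.86% inside and 3.42%, 3.24% and 2.93% in the rest. The intervals inside and in the rest did not overlap in any library for the 2 miR-466 members and miR-125b-5p, and overlapped for let-7c-5p in all. Assignments of 1 library share its reads, and the intervals cover counting error only.

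**Figure D5:**
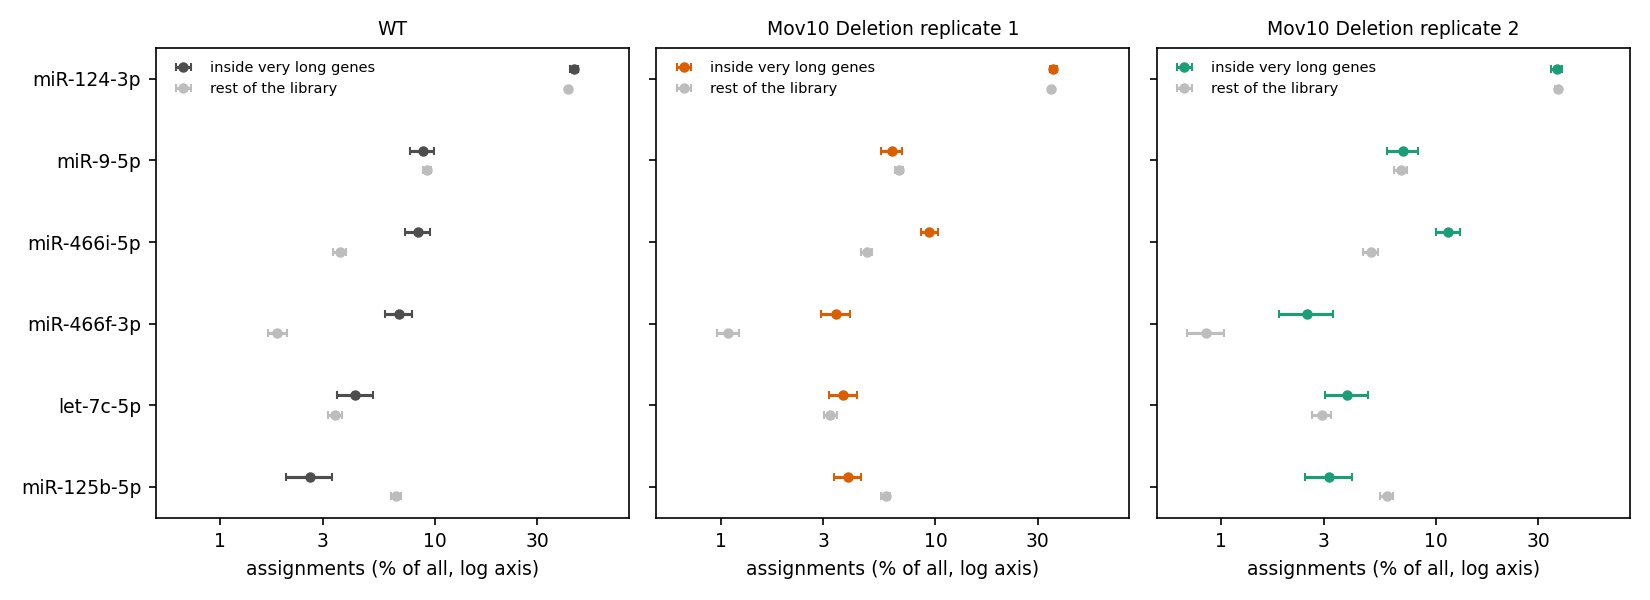
Share of miRNA assignments (x axis, %, log scale) for 6 miRNAs inside very long genes (coloured points) and in the rest of the same library (grey points), with exact 95% intervals. miR-466i-5p and miR-466f-3p lay to the right of the rest in each library, miR-125b-5p to its left, and miR-124-3p close to it.

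Some assignments recurred. Of the WT assignments inside very long genes, 288 (11.4%) in 97 genes overlapped an assignment of the same miRNA in both *Mov10* Deletion libraries. The same share over all WT assignments was not computed, so this one cannot be called high or low. Of these, 183 (63.5%) were miR-124-3p, 27 miR-9-5p, 19 miR-466f-3p, 17 miR-466i-5p and 14 let-7c-5p. *Tenm2* held 14 of them, *Rbfox1* 13 and *Frmd4a* 10. Touching pieces of a site, and several let-7 members at the same cluster, were counted separately, so sites are fewer than these numbers. Within 5 kb of the gene's end lay 35 (12.2%), and 35 overlapped an enriched AGO2 cluster in all 3 libraries.

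The recurrent site of highest score was a miR-124-3p target in *Cadm2* at chr16:67619846-67619959, at the locus near the start of the gene described above. The score deposited for it was 182 (WT), 148 and 57.5 (replicates 1 and 2 of *Mov10* Deletion). In *Nlgn1*, which encodes the postsynaptic partner of neurexins, a miR-124-3p target at chr3:25868067-25868160, 446 kb from the end, had scores of 83.3, 84.3 and 48.9 and AGO2 log2 values of 3.48, 4.91 and 4.48. In *Nrxn3*, a target at chr12:89089502-89089625 lay 1245 kb from the end and had log2 values of 3.73, 4.36 and 4.25. In *Ptprd*, a target at chr4:76759160-76759278 lay 818 kb from the end, with 3.38, 3.95 and 3.42. In *Auts2*, a target at chr5:132347489-132347595 lay 910 kb from the end, with 4.69, 4.53 and 3.58. Each of these was also a miR-124-3p site, and each was enriched for AGO2 in all 3 libraries.

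In *Zfhx3*, a homeobox transcription factor, a miR-9-5p target at chr8:108956642-108956726, 4.91 kb from the end, had scores of 137, 74.5 and 28.1 and log2 values of 5.69, 5.36 and 4.93. let-7c-5p was assigned to the same cluster in each library. *Camta1* had a locus enriched in all 3 libraries with miR-9-5p targets at chr4:151062251-151062488, 2.73 kb from its end. The last exon of *Camta1* was 3335 nt long in the GRCm39 annotation, more than that distance.

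Of the 174 loci enriched in all 3 libraries, 76 overlapped a target cluster of any library, 31 had a target cluster in each library, and 21 had a miR-124-3p target in each. The other 98 had no target cluster in any library, among them the *Grm5* locus and the *Anks1b* locus given above.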

How the data were processed

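AGO2 chimeric eCLIP libraries of 1 WT and 2 *Mov10* Deletion P0 whole brains were analysed from cluster lists. Per the submitters' processing notes, the tools included UMI-tools 1.1.1, cutadapt 3.2, STAR 2.7.7a and Bowtie 1.2.3, with mm10. The authors called AGO2 clusters and deposited for each a log2 IP over input value and a −log10 p, capped at 400. For miRNA target clusters the authors deposited a score of at least 3, whose unit is not given in the sources used here. Library totals were not used here, so depth is unknown except for reads inferred from pairs of log2 and −log10 p.

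Gene bodies were RefSeq genes on mm10. Strand came from the RefSeq promoter table (179 of the very long genes) or GENCODE M39 (45). 2 genes without a strand were left out. Some items are not reported here. Clusters lay wholly inside a body, on its strand and outside its last 1000 nt. Shares have exact Clopper-Pearson 95% intervals, which cover counting error only. Calculations used Python 3.11.15, pandas 2.3.3 and scipy 1.17.1, and were tested on simulated data. Genes were named by length (10), density (5 highest and 5 lowest), enriched clusters (5 per genotype), target clusters (5) and *Mov10* Deletion over WT ratio (3 highest and 3 lowest, at least 50 WT clusters). Genes named for loci, recurrent targets and miRNA arms were chosen after their values were seen. The members and lists were chosen with earlier results of these data known. Enriched clusters were found in 4, 7 and 6 of 8 neuronal genes, 0, 5 and 3 of 6 glial and progenitor genes, and 0 of 8 genes of other organs. Length minimum, enrichment rule, read minimum, target score and left-out replicates were varied.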

Additional observations from a re-analysis of the deposited data

How the results depend on the processing

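Of 104 alternative values, 79 stayed within the limits set and 25 moved. The limit was a fixed fold for counts and densities, and the 95% interval for WT shares and medians. For *Mov10* Deletion shares and medians it was the SD of the 2 replicates. Leaving out 1 replicate could therefore not move those. Nor could it move the number or density of *Mov10* Deletion clusters, since the cluster list is shared (140250 and 140251 clusters). The minimum of 16 inferred IP reads equals the fewest of an enriched WT cluster over 1 input read. It could therefore not move the WT values. A change of sign was possible for medians only, so its absence carries no weight for the other results. With genes of at least 300 kb, or at least 1000 kb, clusters numbered 126039 or 36136 in WT and 224034 or 61609 in *Mov10* Deletion (mean of its libraries), genes with an enriched cluster 300 or 46 in WT and 440 or 56 in *Mov10* Deletion, and target clusters 3572 or 1042 in WT and 4914.5 or 1463 in *Mov10* Deletion. The enriched share in WT was then 1.24% or 0.955%, and the WT median log2 at 300 kb was 0.49. Raising the −log10 p minimum to 5 gave enriched shares of 0.879% in WT and 0.945% in *Mov10* Deletion, and lowering the log2 minimum to 2 gave 2.12% and 3.82%. With at least 16 inferred IP reads it was 0.794% in *Mov10* Deletion, with 121 genes. With adjoining clusters merged, an alternative chosen after seeing the data, it was 0.819% in WT. A target score of at least 5 left 885 target clusters in WT and 1011.5 in *Mov10* Deletion. Leaving out either *Mov10* Deletion replicate gave 1867 to 4487 target clusters, 195 to 209 genes, an enriched share of 1.91% to 3.05% and a median log2 of 0.49 to 0.80. The cause was not tested. No paired analysis was possible because WT has 1 replicate, so the groups share fewer than 2 replicate numbers. The single WT library gives no spread for WT, and the shared cluster list gives none for density in *Mov10* Deletion.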
